A study of Mus musculus with 2 samples.

Results

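The genes described here encode the phagocyte NADPH oxidase and lysozyme. They were 7 genes, chosen by name: Cybb, Cyba, Ncf1, Ncf4 and Rac2 for the oxidase, and Lyz1 and Lyz2 for lysozyme. They are 7 of the 11054 genes whose names were attached to a called transcript in at least 1 library. By name they held 55 of the 43122 transcripts of the control library and 44 of the 51365 transcripts of the IL-4 library.

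The libraries were made by global run-on sequencing (GRO-seq), which captures RNA while engaged polymerases are extending it. The cells were bone marrow-derived macrophages (BMDMs) of wild-type mice aged 8 to 12 weeks, differentiated for 6 days with L929 supernatant as the source of the growth factor M-CSF. The control library came from BMDMs without added cytokine, and the other from BMDMs exposed to 20 ng/ml interleukin-4 (IL-4) for 1 hr. Run-on reactions made in duplicate were pooled before each library was built, so each condition is 1 library, no value below has a replicate, and no test between conditions was possible. The files hold no read counts, so the depth of both libraries is unknown.

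The phagocyte oxidase moves electrons from NADPH across the phagosome membrane to oxygen and so makes superoxide, which helps to kill ingested microbes. Its membrane core is a heterodimer of the catalytic subunit (Cybb, also called NOX2) and a stabilising partner (Cyba), and it becomes active when cytosolic subunits, Ncf1 and Ncf4 among them, and the small GTPase Rac2 or its relative Rac1 join it. Lysozyme cuts the peptidoglycan of bacterial walls. Mice carry adjacent lysozyme genes, of which Lyz2 is the form typical of macrophages and Lyz1 that of Paneth cells in the gut, and Lyz2 is a common marker of the myeloid lineage.

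Lyz1 and Lyz2 are close copies, and their sequences are shown because a read from a shared stretch cannot be placed. Exon 2, which held the highest-scoring Lyz2 transcript after IL-4, is 165 bases long in both genes. The copies agree at 159 of these bases and differ at 6, shown in capitals, with both exons read on the minus strand of GRCm38 from the GENCODE M21 transcripts.
Lyz2 exon 2, chr10:117280641-117280805: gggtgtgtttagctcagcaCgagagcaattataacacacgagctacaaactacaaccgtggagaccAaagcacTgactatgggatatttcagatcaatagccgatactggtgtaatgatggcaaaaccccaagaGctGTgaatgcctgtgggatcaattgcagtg
Lyz1 exon 2, chr10:117291029-117291193: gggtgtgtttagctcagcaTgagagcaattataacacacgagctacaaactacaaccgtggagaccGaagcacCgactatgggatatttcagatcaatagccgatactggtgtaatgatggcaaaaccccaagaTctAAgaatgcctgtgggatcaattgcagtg

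Exon 3 is identical in both genes over its 79 bases. Of all 36-base words in the spliced Lyz2 transcript, 27.3% (350 of 1281) also occur in the Lyz1 transcript, and of all 50-base words 15.4% (195 of 1267) do. The read length is not given in the sources used here. Introns were not compared, since no genome sequence was used. By exon of Lyz2, the shared 36-base words were 6 of 180 in exon 1, 36 of 130 in exon 2, 44 of 44 in exon 3 and 225 of 822 in exon 4. The shared 50-base words were 0 of 166 in exon 1, 11 of 116 in exon 2, 30 of 30 in exon 3 and 115 of 808 in exon 4. Scores over exons, the last included, are therefore uncertain to unlike degrees, by these words most in exon 3 and least in exon 1.

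Nascent RNA of the members was compared between control and IL-4 to see which of these genes had less or more of it after 1 hr. Each called transcript is a stretch of a chromosome strand with a score for its run-on signal, and a gene can hold many such segments. Each gene was valued by its best-scoring named transcript, here called its highest score. Scores are printed to 1 decimal, so each is known to within 0.05, and the lowest and highest ratio possible within that rounding are given as the rounding range, which is not a replicate error. Log2 ratios (IL-4 over control) had the median of the 8879 genes valued in both libraries subtracted, which was -0.38, and are called centred ratios.

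Of the 6 members with a value in both libraries, 3 were at least 2-fold lower after IL-4 (Ncf1, Rac2 and Cybb) and 0 were at least 2-fold higher. Among all 8879 genes, 8.62% were at least 2-fold lower and 8.06% at least 2-fold higher. The median centred ratio of the 6 members was -0.84, and over all genes it is 0 by construction. Without centring, the same 3 members were at least 2-fold lower, but then 2161 genes were lower and 531 higher, or 24.3% and 5.98% of all genes. Scaled to the summed score times length of each library, without the ribosomal RNA precursor and mitochondrial transcripts, the 3 members were again lower. So were 24.6% of genes (2186), while 2.52% (224) were higher.

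**Figure D1:**
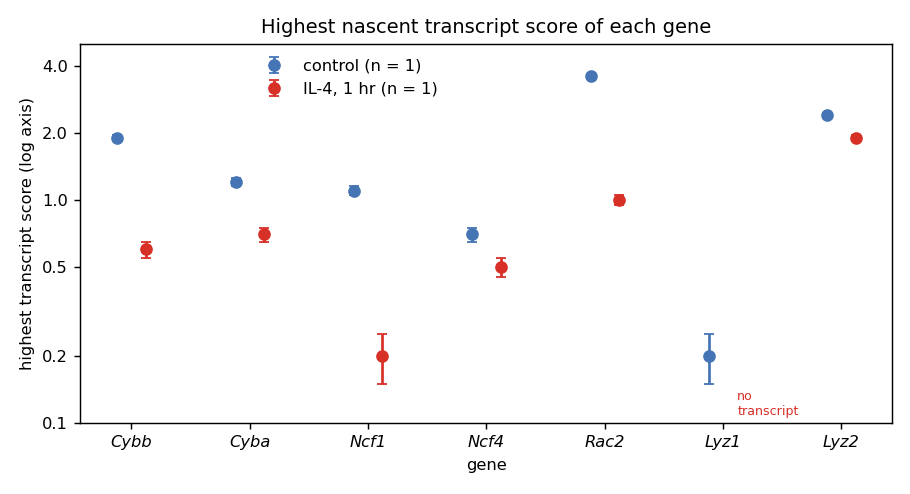
Highest transcript score (log axis) of each gene in the control library (blue) and the IL-4 library (red), n = 1 each, with bars for the rounding of the printed score. The widest gaps are those of Rac2 (3.6 and 1.0), Cybb (1.9 and 0.6) and Ncf1 (1.1 and 0.2), whereas Lyz2 stands at 2.4 and 1.9 and Lyz1 has no transcript after IL-4.

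Cybb encodes the catalytic subunit of the oxidase, loss of which causes chronic granulomatous disease. It lies on chromosome X, 9435252 to 9487771, minus strand (ENSMUSG00000015340.10), where the RefSeq start is at 9469324. Its value was 1.9 in control and 0.6 after IL-4. The centred ratio was thus -1.28 (rounding range -1.45 to -1.13). By this ratio 3.87% of all genes stood as low or lower.

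The Cybb value came from a short segment. In control it was a 133 bp transcript of intron 3 (chrX:9459533-9459665) that the files annotate as a simple repeat, and after IL-4 a 235 bp transcript over the same place, annotated as a SINE element. The other control transcripts scored between 0.2 and 0.5 and numbered 4, of which 3 lay in intron 3 and 1 in exon 13. The IL-4 library had 2 others, both at 0.2. The exon 13 transcript, at the end of the gene, scored 0.2 in both libraries. Neither library had a called Cybb transcript over the RefSeq start. When transcripts annotated as simple repeats, low complexity or satellites were left out, the Cybb values became 0.5 and 0.6 and the centred ratio 0.585. That setting was uneven between the libraries, since it dropped the control transcript but kept the IL-4 transcript over the same place. With the overlapping transcript of the other library left out as well, a choice made after seeing the data, the values were 0.5 and 0.2 and the centred ratio was -1. Both of these were single low scores. The former came from a 68 bp control transcript of intron 3 with no counterpart, the latter from exon 13.

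Cyba encodes the membrane partner that stabilises the catalytic subunit. It lies on chromosome 8, 122424776 to 122432930, minus strand (ENSMUSG00000006519.11). Its value was 1.2 in control and 0.7 after IL-4. Its centred ratio of -0.40 (rounding range -0.56 to -0.24) is under 2-fold. Both values came from the 5' end of the gene, in control from chr8:122432411-122432958 and after IL-4 from a longer transcript, chr8:122431463-122432937.

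Mvd, a gene of the mevalonate pathway, ends a short way upstream on the same strand (chr8:122433601-122443422), and the files annotate the control transcript by the end of Mvd.

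Cyba differed between libraries in how much of it was covered. Inside the annotated gene and on its strand there were 8 transcripts in each library, and they covered 37.6% of its bases in control and 62.2% after IL-4. Of these, 2 in control and 3 after IL-4 carried the name of Il17c, a cytokine gene on the opposite strand downstream (chr8:122422020-122423639), because the files name a transcript after the nearest promoter. Summed over the gene, score times covered bases was 1861 in control and 2008 after IL-4. The centred ratio of these sums was -0.02 (rounding range -0.33 to 0.28). Of its 8 overlapping pairs of segments, 6 had a lower printed score after IL-4 and 2 a higher one, so more of the gene was covered at mostly lower scores. A transcript on the other strand at the 5' end, counted among the lower pairs, scored 0.3 in control and 0.1 after IL-4.

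Ncf1 encodes the organiser p47phox, which brings the cytosolic complex to the membrane. It lies on chromosome 5, 134220053 to 134229625, minus strand (ENSMUSG00000015950.13). Its scores were 1.1 (control) and 0.2 (IL-4), which gave the lowest ratio of the members, -2.08 (rounding range -2.56 to -1.69). Only 0.766% of all genes stood as low or lower.

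The Ncf1 difference was not even along the gene, with centred ratios of -2.21 in exon 7, 0.38 in intron 5 and -0.21 at the 5' end. The control value itself lay 1385 bp beyond the annotated end, at chr5:134217971-134218667, on the Ncf1 strand and antisense to the convergent gene Gtf2ird2 (chr5:134184019-134224355). Within Ncf1 the highest score was 0.6 in control, in exon 7, and 0.2 after IL-4. Of the 7 pairs of overlapping same-strand segments, 6 had a lower printed score after IL-4 and 1, in intron 5, had 0.2 in both libraries. The lower pairs include those beyond the annotated end (1.1 and 0.2, 0.3 and 0.1). Of all overlapping pairs of the libraries, 54.3% had a lower printed score. Summed inside the gene, score times covered bases was 1541 in control and 411 after IL-4, which put the centred ratio at -2.03 (rounding range -2.90 to -1.35). At the 5' end the scores were 0.3 in control, in a transcript annotated as low complexity, and 0.2 after IL-4.

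The promoters of Ncf1 and Cyba are shown because, of the 5 members with a promoter in the RefSeq table, these were the ones in which a called transcript crossed the RefSeq start. The Ncf1 transcript after IL-4 (chr5:134229387-134229705, score 0.2) reached 80 bases upstream of that start, and the Cyba transcript in control reached 18 bases upstream. Both windows are the 250 bases before the start on the minus strand, from RefSeq on GRCm38.p6, with matches to the searched motifs in capitals.
Ncf1, chr5:134229626-134229875: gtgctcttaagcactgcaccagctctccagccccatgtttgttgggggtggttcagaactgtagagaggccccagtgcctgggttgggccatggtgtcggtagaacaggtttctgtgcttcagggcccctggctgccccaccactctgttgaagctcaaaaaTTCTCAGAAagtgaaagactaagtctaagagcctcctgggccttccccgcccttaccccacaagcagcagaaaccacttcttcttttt
Cyba, chr8:122432941-122433190: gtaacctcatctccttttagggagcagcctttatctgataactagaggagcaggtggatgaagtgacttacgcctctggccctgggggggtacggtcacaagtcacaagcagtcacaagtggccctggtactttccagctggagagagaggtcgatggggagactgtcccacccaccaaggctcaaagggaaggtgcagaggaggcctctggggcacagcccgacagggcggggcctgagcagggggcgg

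Short motifs were searched on both strands, and none of them contains another. Promoters were found for 5 members, all but Ncf4 and Rac2. The motif of STAT factors (TTCNNNGAA) occurred in Ncf1, 88 to 80 bases before the start, and 7.02% of the 32851 promoters hold it. The motif of AP-1 (TGANTCA) occurred in Cybb, 139 to 133 bases before the start, and 6.75% of all promoters hold it. The motif of C/EBP factors (TTGCNNAA) occurred in Lyz1, 209 to 202 bases before the start, and 9.56% of all promoters hold it. The wider motif of STAT6 (TTCNNNNGAA, in 5.85% of all promoters) occurred in none of the 5. The core motif of PU.1 and other ETS factors (GAGGAA, in 23.3%) was also found in none of them within this window. The same held for the TATA box (TATAAA, in 12.4%). Aligned without gaps, the lysozyme promoters agree at 152 of the 250 bases (60.8%), and at 92 of the 100 nearest the start. A match of letters is a description and no sign of binding.

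Ncf4 encodes p40phox, which binds a phosphoinositide of the phagosome membrane and supports the assembled oxidase. It lies on chromosome 15, 78244801 to 78262580, plus strand (ENSMUSG00000071715.12). Its value was 0.7 in control and 0.5 after IL-4. Its centred ratio was -0.11, with a rounding range (-0.36 to 0.14) that included 0. It had 11 transcripts in each library, with a median score of 0.2 in both.

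The values of Ncf4 did not come from the same place. The control value was a 90 bp transcript of intron 7 that had a score of 0.2 after IL-4, and the IL-4 value was a simple-repeat transcript of intron 1 that had 0.3 in control. Of its 10 overlapping pairs, 6 had equal printed scores, 3 were lower and 1 was higher after IL-4. The transcript over exon 1 scored 0.2 in both. Inside the gene, score times covered bases was 729 in control and 843 after IL-4, with a centred ratio of 0.08 (rounding range -0.66 to 0.81).

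Rac2 encodes the GTPase of blood cells that switches the oxidase on. It lies on chromosome 15, 78559167 to 78572783, minus strand (ENSMUSG00000033220.7). It had scores of 3.6 (control) and 1.0 (IL-4). The centred ratio was -1.47 (rounding range -1.56 to -1.38). By this ratio 2.83% of all genes stood as low or lower.

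As in Cybb, the Rac2 value came from a simple repeat. In both libraries it was a transcript of intron 5 over a (CA)n repeat, chr15:78563192-78563667 in control and chr15:78563070-78563669 after IL-4. The next highest control score was 0.6, in a transcript 8560 bp upstream of Rac2 that lies in the long non-coding RNA gene Gm36738 (chr15:78574411-78581616) and had 0.3 after IL-4. Without the low-complexity repeats, Rac2 had values of 0.6 and 0.3 and a centred ratio of -0.68. Counted in addition only where transcripts overlapped the gene on its own strand, a choice made after seeing the data, the values were 0.5 and 0.3 and the ratio -0.42. Of 8 overlapping pairs, 6 were lower after IL-4, 1 was equal and 1, at the 3' end, was higher (0.2 and 0.3). The lower pairs include the upstream pair in Gm36738 and a pair on the other strand (0.2 and 0.1). Inside the gene, the sum of score times covered bases was 2297 in control and 1291 after IL-4, with a centred ratio of -0.96, under 2-fold (rounding range -1.29 to -0.66).

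Lyz2 lies on chromosome 10, 117277331 to 117282321, minus strand (ENSMUSG00000069516.8). Its highest score was 2.4 in control, in intron 1, and 1.9 after IL-4, in exon 2. Its centred log2 ratio was 0.04 (rounding range -0.03 to 0.11). Without centring it was -0.34, so its sign depends on the scaling.

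Segments of Lyz2 did not all differ alike. Toward the 5' end of the gene, control had transcripts at 2.3 and 2.4 where IL-4 had a single transcript at 1.8, and their centred ratios were 0.02 and -0.04. In exon 2 the printed score was higher after IL-4, 1.6 in control and 1.9, a centred ratio of 0.63. That segment ended within 1 base of the 3' boundary of exon 2 in both libraries and reached 37 bases into intron 1 at its other end. Control had a transcript of 1.1 in intron 2 with no counterpart after IL-4. In the last exon control had 0.9 where IL-4 had 0.4 in each of its 2 transcripts, a centred ratio of -0.79 for both.

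A control transcript of 0.2 lay 2197 bp upstream of the gene. Beyond the annotated end of Lyz2, control had transcripts at 0.4, 0.6 and 1.2, the last of which began 1347 bp from the gene. After IL-4 a single transcript of 0.2 overlapped the latter 2. Their centred ratios were -1.21 and -2.21. Summed inside the gene, score times covered bases was 4080 in control and 2408 after IL-4, which gave a centred ratio of -0.89 (rounding range -0.99 to -0.78). Over all transcripts named Lyz2, including those beyond the gene, the sums were 5288 and 2567 and the ratio -1.19. The ratio was thus near 0 by the highest score and below 0 by the sums.

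Lyz1 lies next to Lyz2 on chromosome 10, 117287797 to 117292868, on the same strand (ENSMUSG00000069515.6). It had 0 transcripts on its own strand in either library. The only transcript with its name lay in control, antisense to intron 3 (chr10:117288622-117288963), and scored 0.2. No ratio was given. Where no transcript was called, a level below the caller's limit at this unknown depth cannot be told apart from absence.

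**Figure D2:**
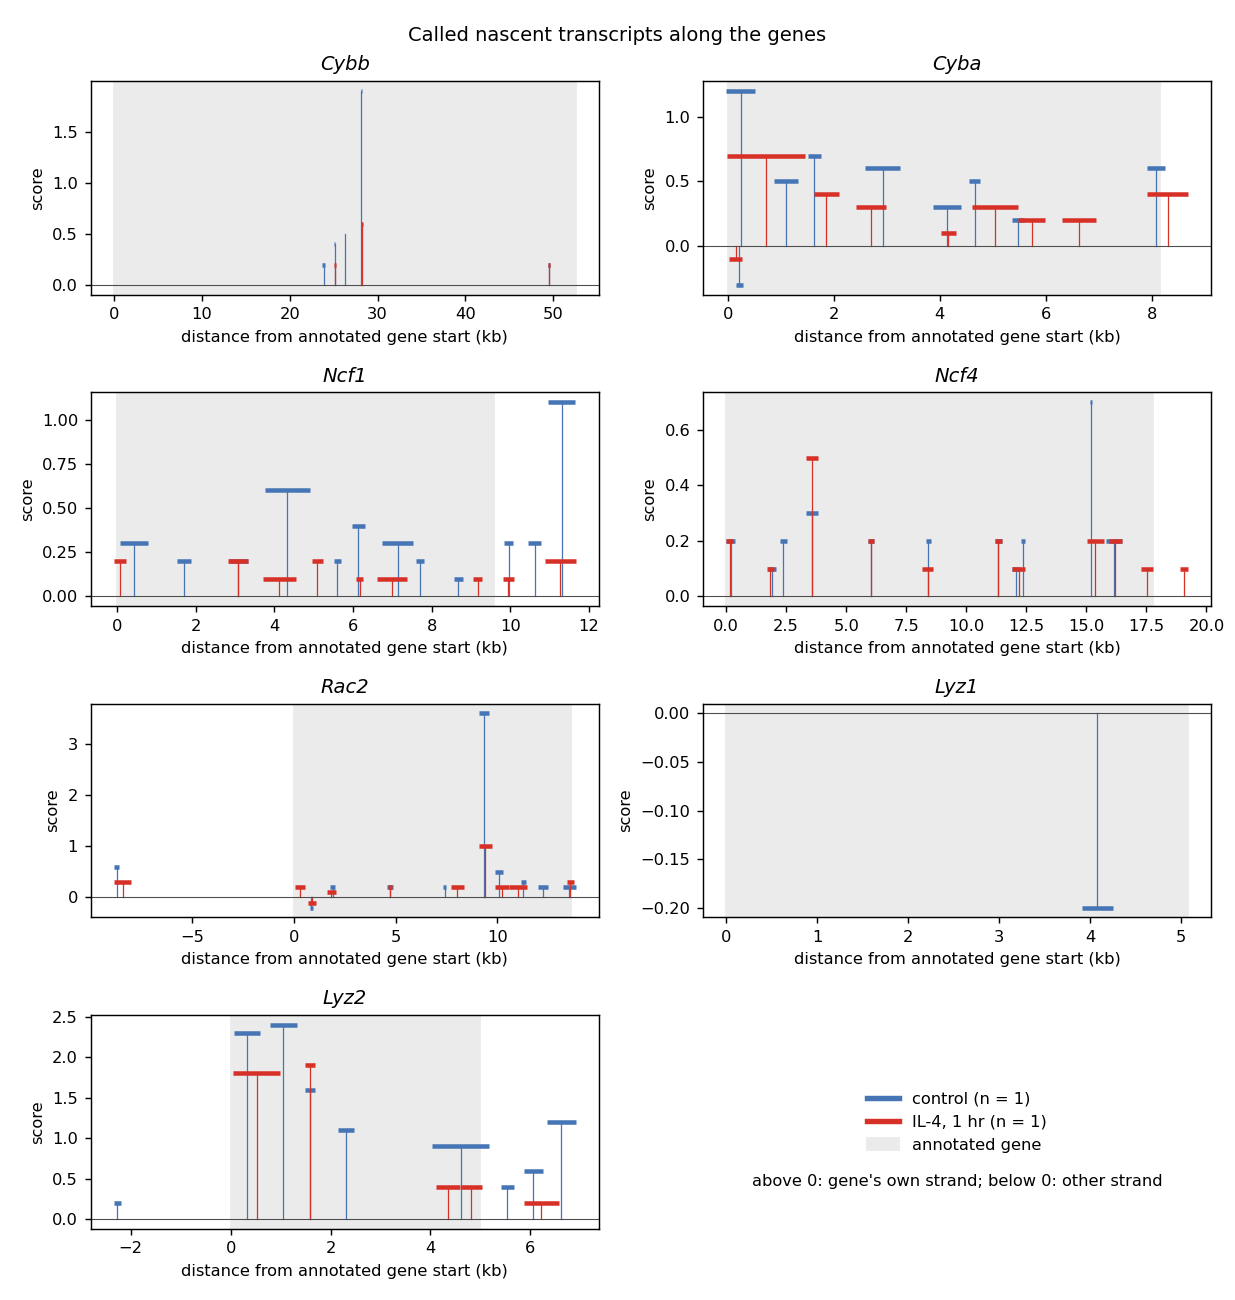
Called transcripts of each gene in control (blue) and IL-4 (red), n = 1 each, with the distance from the annotated gene start in kb on the x axis and the score on the y axis, above 0 for the gene's own strand and below 0 for the other. Horizontal bars span the transcript and grey marks the annotated gene. Control bars stand above IL-4 bars over much of Ncf1, less so at its 5' end, and at the 3' end of Lyz2. Single tall segments dominate Cybb (1.9) and Rac2 (3.6).

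Over all members, 43 pairs of segments overlapped on the same strand between the libraries. The printed score was lower after IL-4 in 29 (67.4%), equal in 9 and higher in 5. Among all 27464 such pairs of the libraries, 54.3% were lower, 22.8% equal and 22.9% higher, so lower scores were also the commonest outcome elsewhere. Pairs of a gene are not independent, since a long transcript can overlap several. Of the members' transcripts, 41 of 55 in control (74.5%) and 38 of 44 after IL-4 (86.4%) had a counterpart, beside 62.6% and 51.9% of all transcripts.

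Levels were compared between members only per base of gene, as score times covered bases on the gene's strand divided by gene length. This treats the score as a density per base, which the files do not state. If it is a total over the transcript, length is counted again in these sums and their ratios, and the order below would not hold as one of levels. In control the order was Lyz2 (0.818), Cyba (0.228), Rac2 (0.169), Ncf1 (0.161), Ncf4 (0.0410) and Cybb (0.0077). Rac2 and Ncf1 could not be told apart within their rounding ranges (0.159 to 0.178 and 0.138 to 0.184). After IL-4 it was Lyz2 (0.483), Cyba (0.246), Rac2 (0.0948), Ncf4 (0.0474), Ncf1 (0.0430) and Cybb (0.0041). Ncf1 was then within the rounding range of Ncf4 (0.0269 to 0.0590 and 0.0351 to 0.0597). Cybb was lowest in both libraries, with 1.39% and 1.13% of its annotated length under called transcripts, a length that includes the stretch upstream of its RefSeq start.

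By this sum over the gene body, 2 of 6 members were at least 2-fold lower after IL-4, Ncf1 at -2.03 and Cybb at -1.05 (rounding range -1.40 to -0.73), and 0 were higher. Of the 8158 genes with such a value, 16.7% were at least 2-fold lower and 16.6% higher. These sums run over segments called separately in each library, so they move with how much was called. In Ncf1, 9 segments covered 4430 bp in control at a mean score of 0.348 per covered base, and 7 covered 3073 bp after IL-4 at 0.134. In Cybb the covered length was 731 bp and then 594 bp, at mean scores of 0.554 and 0.358. In Rac2 it was 2661 bp and 4166 bp, at 0.863 and 0.310, and in Lyz2 2561 bp and 2008 bp, at 1.59 and 1.2. The mean score was lower after IL-4 in all 6 members, Cyba (0.607 and 0.396) and Ncf4 (0.209 and 0.193) included. These means are not centred. Over all transcripts the median score was also lower after IL-4 (0.3 in control and 0.2) and the median length greater (227 and 312 bp). The share of all genes with a lower mean was not computed, so whether this sets the members apart was not tested. For the body sums, the rounding range of Cybb reached to the smaller side of 2-fold. That of Rac2, at -0.96, reached to the larger side (-1.29 to -0.66). Valued by the transcript nearest its TSS (transcription start site), 1 member was at least 2-fold lower, Cyba at -1.58 from a transcript on its other strand, while 27.7% of all genes were lower and 11% higher. By that measure Ncf1 was at -0.58 and Cybb, Rac2 and Ncf4 were at 0, with a score of 0.2 in each library. For Rac2 this set an antisense control transcript beside a sense IL-4 transcript at another place, and for Cybb it set different segments of intron 3 beside each other, 5405 and 6711 bp from the start. Those zeros therefore do not compare the same transcript, whereas the Ncf4 transcripts overlapped.

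Other definitions were read against their own backgrounds. By the sum of score times length of all named transcripts, 3 members were at least 2-fold lower (Ncf1, Lyz2 and Cybb) and 0 higher, beside 16.9% and 17.2% of all genes, and by the sum of scores 2 were (Ncf1 and Cybb), beside 13.7% lower and 13.6% higher. By the highest score overlapping the gene on its own strand, 3 were lower (Rac2, Cybb and Ncf1), beside 8.4% lower and 8.26% higher of all genes. Without low-complexity repeats, 2 were lower (Ncf1 and Ncf4), beside 10.7% lower and 9.8% higher, and with same-strand overlap as well 2 again, beside 10.5% and 9.89%. With the counterparts of those repeats left out too, 3 were lower (Ncf1, Ncf4 and Cybb), beside 10.1% and 8.67%. Without transcripts under 100 bp, 3 were lower and Ncf4 was higher, beside 9.45% and 10.2%. Among genes of at least 0.5 in either library, 3 were lower, beside 8.84% lower and 9.88% higher, and with missing values set to 0.1, 3 were lower, beside 12.3% and 13.1%.

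**Figure D3:**
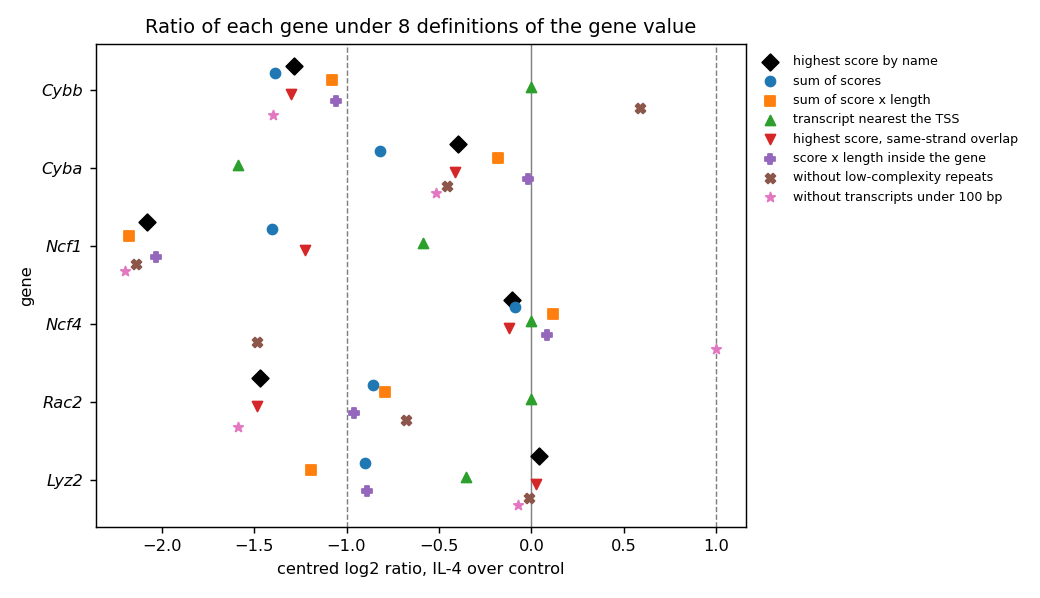
Centred log2 ratio of IL-4 over control (x axis) for the 6 genes with a value in both libraries (y axis), 1 symbol for each of 8 definitions of the gene value, with dashed lines at 2-fold. Ncf1 lies between -2.20 and -0.58, Cybb and Rac2 move from beyond the lower line to 0 or, for Cybb when the repeat was dropped from control alone, to 0.585, and Ncf4 spreads from -1.49 to 1.

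Other genes that serve the oxidase were read from a list of 15 partner and assembly genes. Of the 14 with a value in both libraries, 1 was at least 2-fold higher after IL-4 and 0 were lower. The shares of all genes were 8.06% higher and 8.62% lower. The list's median centred log2 ratio was -0.19. The higher gene was Prkcd, a protein kinase C that phosphorylates p47phox, with 1.1 in control and 1.9 after IL-4 (1.17, rounding range 1.06 to 1.27). Vav1, an exchange factor that loads Rac proteins, had 5.1 in control and 2.0 after IL-4, or -0.97 (-1.02 to -0.92).

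Prkcb, another protein kinase C, had 3.0 and 1.8 (-0.36), and Hvcn1, the proton channel that balances the charge moved by the oxidase, had 2.2 and 1.6 (-0.08). Rac1 had 1.2 and 0.6 (-0.62), also over a (CA)n repeat. Of 9 genes for other NADPH oxidases and their organisers (among them Nox1, Nox4 and Duox1), 8 had no transcript in either library, and Noxo1 had 0.2 in both.

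Among 18 genes that remove or sense reactive oxygen, 14 had a value in both libraries, with a median of -0.09. Of these, 2 were at least 2-fold higher and 1 lower, beside 8.06% and 8.62% of all genes. The lower gene was Nfe2l2, which encodes the antioxidant response factor NRF2, at 6.5 in control and 1.6 after IL-4 (-1.64, rounding range -1.70 to -1.59). The higher genes by name, Txnrd1 and Gclm, both went from 0.1 to 0.3 (1.96, rounding range 1.12 to 3.19), but by overlap on their own strand they had 0.6 and 0.3 (-0.64) and 1.0 and 0.7 (-0.15). Sod1 had 2.3 and 2.0 (0.18) in a segment outside its own strand or body, where it had 0.5 and 0.4, and Gpx1 had 1.6 and 0.8 (-0.62).

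**Figure D4:**
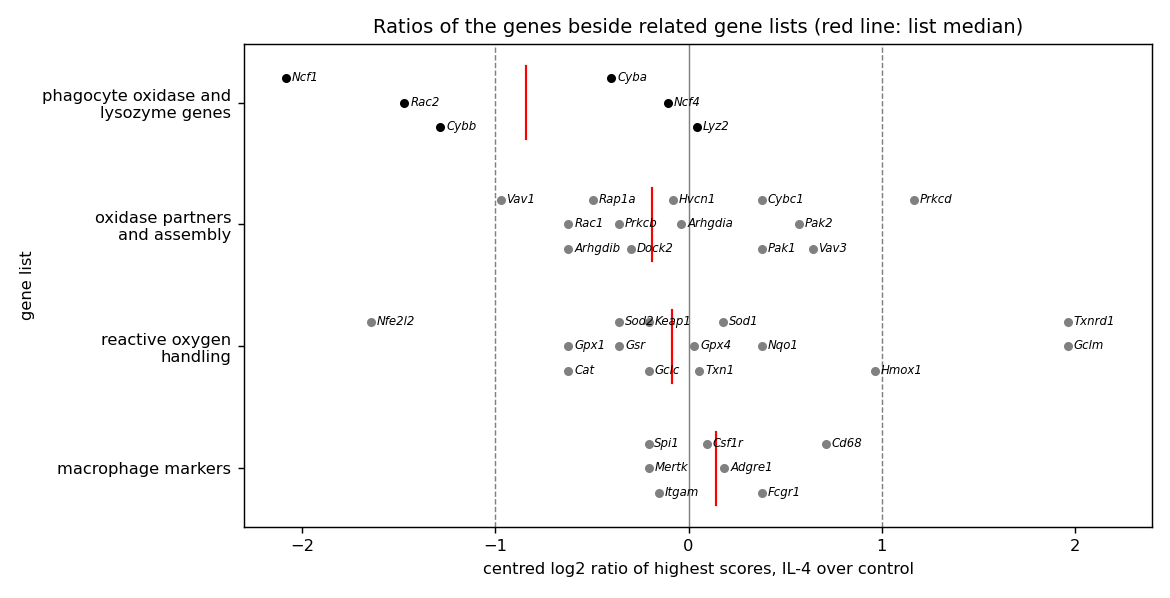
Centred log2 ratio of the highest scores, IL-4 over control (x axis), for reported genes valued in both libraries (points), by gene list (y axis), with the median of each whole list in red and dashed lines at 2-fold. The members have a median of -0.84, the oxidase partners -0.19, the reactive oxygen genes -0.09 and the macrophage markers 0.14.

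The label of the cells was checked against marker genes. All 8 macrophage markers had a value in both libraries, with a median of 0.14 and a summed score of 20.7 in each library. Of them, 0 was 2-fold apart, beside 8.06% of all genes higher and 8.62% lower. Csf1r, the M-CSF receptor, had 5.6 and 4.6. Cd68 had 5.8 and 7.3 by name, but by overlap on its own strand 1.2 and 0.8. The median and the equal sums above use the values by name, so they rest in part on that Cd68 segment. Of 6 neutrophil markers, which matter here because neutrophils also make this oxidase and lysozyme, Ly6g, Cxcr2 and Mmp8 had no transcript. Csf3r, the G-CSF receptor, had 3.9 and 9.4 (1.65, rounding range 1.62 to 1.67), S100a8 had 0.5 and 0.3, and S100a9 had 0.2 after IL-4 only. These markers summed to 4.4 (control) and 9.9 (IL-4), of which Csf3r alone held 3.9 and 9.4, so the higher sum is that of 1 gene. The part of these markers in the members' values was not tested. In bulk libraries, fewer cells of a type and less RNA per cell cannot be told apart.

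Of 18 granule and lysozyme-family genes, 13 had no transcript in either library, including the neutrophil protease genes Elane, Prtn3 and Ctsg. Ngp, a granule protein gene, had 0.8 and 0.6 (-0.04), and Mpo, the myeloperoxidase gene, had 0.6 in control only. Defining markers of T cells (Cd3e, Cd3g, Lck), B cells (Ms4a1, Pax5), dendritic cells (Flt3, Zbtb46, Xcr1) and fibroblasts (Col1a1, Col1a2, Pdgfra) had no transcript. Cd8a (0.6 and 0.8) and Cd79a (0.4 in both) had values by name but none by overlap on their own strand.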

How the data were processed

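The authors aligned GRO-seq reads to mm10 (GRCm38) with BWA (0.7.10 in the submitters' processing notes), removed ENCODE-listed artifact regions and called transcripts per library with HOMER in GRO-seq mode (4.2 in the notes), which also annotated them. Per the file headers, the deposited value is a peak score, printed to 1 decimal, and whether it is scaled to library size or per base is not stated. The deposited files also hold the distance to the nearest TSS, of which only the size was used. Depth is unknown, so no interval that needs it was given.

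Groups were taken from the treatment label. All transcripts were kept. Gene values, centring, rounding ranges and the 2-fold limit are as described above. Segments were matched by at least 1 bp on the same strand. Gene positions came from GENCODE M21 and promoters from RefSeq GRCm38.p6, which held 5 of the 7 members. In the gene lists, older symbols were matched. All 7 members were named, and of the lists, those 2-fold apart or more that reached the median gene (0.5 in control, 0.3 after IL-4) in at least 1 library, and the 3 highest in control, with others added as examples after their values were seen. Some list genes entered the counts and medians but are not reported here. Members and lists were chosen with earlier results of these data known. With 2 libraries, no genes of similar pattern were sought. The ratio calculation was run on control values with known fold changes put in. That checked the arithmetic only, since no segments were called anew, and it does not bear on how segment calling moves the ratios. Python 3.11.15, pandas 2.3.3 and numpy 2.4.6 were used. The 11 alternatives set at the outset, and 2 added after seeing the data, are given in the closing section.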

Additional observations from a re-analysis of the deposited data

How the results depend on the processing

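Of the members, Ncf1 and Cyba were below 0 under every alternative, and the others were not. For Cyba the sum inside the gene was only -0.02, with a rounding range that included 0 (-0.33 to 0.28). Ncf1 was at least 2-fold lower under all but the transcript nearest the TSS. Cybb stood at 0.585 without low-complexity repeats, also by same-strand overlap (chosen after seeing the data). In both, the filter dropped its highest control transcript and kept the IL-4 transcript over the same place, so 0.585 does not compare the same transcript. With both left out (also chosen after seeing the data) Cybb was at -1. That value again came from different transcripts, of intron 3 in control and of exon 13 after IL-4. With the transcript nearest the TSS, Cybb and Rac2 stood at 0, each from different transcripts in the 2 libraries. By that transcript 1 member was at least 2-fold lower, against 3 by the highest score. Without transcripts under 100 bp, 1 member (Ncf4, at 1) was at least 2-fold higher, against 0, since its 90 bp control transcript was then left out. With missing values set to 0.1, Lyz1 stood at -0.68. Over all genes, the number at least 2-fold higher ranged from 224 (scaled to summed score times length) to 1529 (sum of score times length), against 716 by the highest score, and the number lower from 466 (genes of at least 0.5) to 2460 (transcript nearest the TSS), against 765. Scaled to summed score times length, the median gene stood at -0.46, and without centring at -0.38, and no member changed its side of the 2-fold limit. No paired analysis was possible because each condition had 1 library. Scores printed to 1 decimal limit what can be said of values near 0.1, and depth could not be assessed.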
